A study of Mus musculus with 42 samples.

Results

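The genes described here encode the enzymes that turn arachidonic acid into prostaglandins and leukotrienes. They are Pla2g4a, Ptgs1, Ptgs2, Ptges, Ptges2, Ptges3, Alox5ap, Alox5, Lta4h and Ltc4s, taken by symbol for their place in the pathway. All 10 were among the 21951 genes of the deposited expression table and among the 12558 genes of the deposited mRNA decay table. The study compared ΔM bone marrow-derived macrophages (BMDMs), which lack the mRNA-destabilising protein tristetraprolin (TTP, gene Zfp36), with wild-type (WT) BMDMs. The 42 libraries formed 14 groups of 3 biological replicates. ΔM and WT cells were each left untreated (LPS 0 h) or given 10 ng/ml lipopolysaccharide (LPS), the cell wall component of Gram-negative bacteria, for 3 or 6 h. At 3 and 6 h further cultures received 5 µg/ml actinomycin D, which stops transcription, for 45 or 90 min, and the cultures without it served as the 0 min point. The marrow came from young adult C57BL/6 TTPΔM mice (labelled TTP-/-), in which LysM-Cre deletes Zfp36 in myeloid cells, and from WT littermates, and in both genotypes the macrophages were grown in CSF-1 from L929 cells. Because LysM-Cre acts through the myeloid lineage, the cells had differentiated in its presence, so an effect of TTP during differentiation and one after LPS cannot be told apart.

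Cytosolic phospholipase A2 releases arachidonic acid from membranes and feeds both branches of the pathway. In the prostaglandin branch the cyclooxygenases COX-1 and COX-2 form prostaglandin H2, which terminal synthases convert to prostaglandin E2 and other prostanoids. In the leukotriene branch 5-lipoxygenase, assisted by its activating protein FLAP, forms leukotriene A4, from which a hydrolase makes leukotriene B4 and a synthase makes leukotriene C4. Activated macrophages are a known source of prostaglandin E2, a mediator of fever and pain that also restrains macrophage activation. TTP binds AU-rich elements, runs of AUUUA in 3′ untranslated regions, and recruits the enzymes that shorten the poly(A) tail.

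Levels were deposited as FPKM, fragments per kilobase of transcript scaled to the size of the library, which can be compared between genes because they are divided by length. The FPKM columns hold 1 pooled value per group and the authors' own comparison columns were not used, so no value below has a spread between replicates, a test or an error, and depth per library was unknown. Ratios are given as log2 of FPKM + 1 over FPKM + 1. A gene was said to be higher or lower, or to have risen or fallen, when this ratio passed 1.5-fold (0.58 on the log2 scale) and the mean FPKM of both groups was at least 1. Such statements describe these pooled values and have no replicate check. Zfp36 itself had 5.98, 16.3 and 31.0 FPKM in ΔM cells at 0, 3 and 6 h, against 118, 1017 and 1782 FPKM in WT cells, and its ratio was the lowest of all genes tested at each time. All 9 macrophage markers in the table were above 5 FPKM in every group, and their sum lay between 5489 and 10171 FPKM in ΔM groups and between 6993 and 12603 FPKM in WT groups. Of them Lyz2, the locus that carries LysM-Cre, was lower in ΔM cells, with 4067, 3098 and 2043 FPKM at 0, 3 and 6 h in ΔM cells, against 6936, 4841 and 3541 FPKM in WT cells. Mertk was higher in ΔM cells at 0 and 3 h (log2 ratios of 0.60 and 0.96) and Fcgr1 at 0 h (0.88). Cpa3, Kit, Gata2, Mcpt8 and Ms4a2, which mark mast cells and basophils, stayed under 1 FPKM in all 6 groups, as did all 4 eosinophil markers analysed. The remaining mast cell and basophil marker analysed was Hdc, which macrophages also induce. With it the sum of these markers lay between 2.05 and 16.2 FPKM in ΔM groups and between 2.06 and 33.3 FPKM in WT groups. Hdc was lower in ΔM cells at 3 h (7.19 FPKM in ΔM and 12.7 FPKM in WT cells). It was also lower at 6 h (15.9 FPKM in ΔM and 33.1 FPKM in WT cells). Tpsb2, Cma1 and Fcer1a, listed as markers of the same cells, were not analysed. The 9 neutrophil markers summed to between 13.6 and 55.2 FPKM in ΔM groups and between 14.1 and 40.8 FPKM in WT groups, with Mpo, Elane, Ltf and Camp under 1 FPKM throughout. Of these, S100a8 was higher in ΔM cells before LPS (14.2 FPKM in ΔM and 6.84 FPKM in WT cells) and at 6 h (15.9 FPKM in ΔM and 4.21 FPKM in WT cells), S100a9 was higher before LPS (18.4 FPKM in ΔM and 8.34 FPKM in WT cells), and Ngp was lower at 3 h (0.65 FPKM in ΔM and 1.61 FPKM in WT cells). The part of these cells in the results was not tested, and in such bulk RNA fewer cells of a type and less RNA per cell cannot be told apart.

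The members differed in level by more than 100-fold within each group. Before LPS, Alox5ap was the most abundant member, followed by Lta4h, and Ltc4s or Ptgs2 was the least abundant. After 6 h of LPS, Ptgs2 had overtaken Alox5ap in both genotypes, and Ltc4s stood last. Highest and lowest member then differed by 977-fold in ΔM cells and by 338-fold in WT cells. These quotients use no pseudocount and rest on a low Ltc4s level (0.87 FPKM in ΔM and 1.39 FPKM in WT cells).

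**Figure D1:**
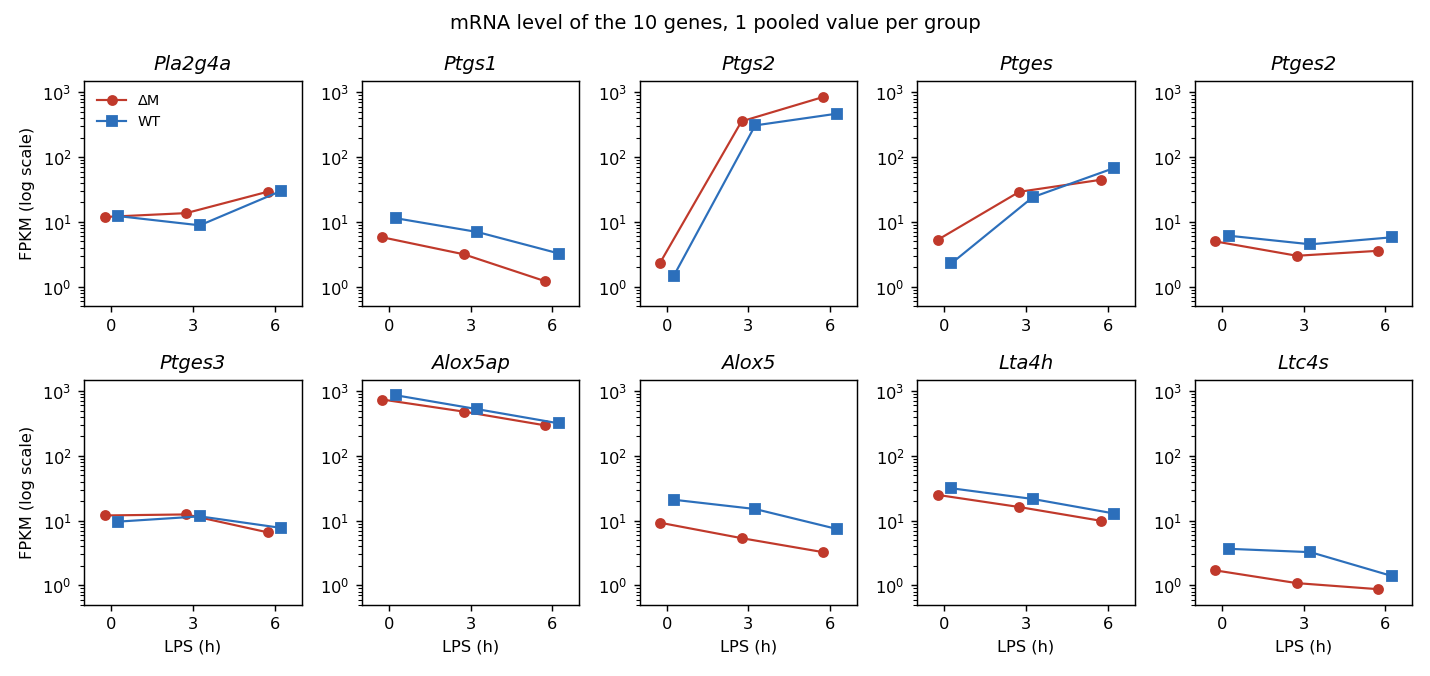
FPKM (log axis) of each gene at 0, 3 and 6 h of LPS in ΔM (red circles) and WT (blue squares) macrophages, 1 pooled value per group with no error available. Ptgs2, Ptges and Pla2g4a end above their starting level in both genotypes, and Alox5 and Ptgs1 lie lower in ΔM than in WT at every time.

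Between genotypes, before LPS, Ptges was the member that was higher in ΔM cells, and Ptgs1, Alox5 and Ltc4s were lower, with 6 members within 1.5-fold. Of the 11459 genes tested at that time, 3.16% were higher and 5.05% were lower in ΔM cells. At 3 h no member was higher and Ptgs1, Alox5 and Ltc4s were lower, beside 3.34% higher and 4.52% lower of 10770 genes. At 6 h Ptgs2 was higher, Ptgs1, Alox5 and Ptges were lower, and the corresponding shares of 10307 genes were 1.79% and 3.19%. The median log2 ratio of the 10 members was -0.23, -0.26 and -0.35 at 0, 3 and 6 h, and that of all genes tested was -0.05, -0.02 and -0.03. Ptgs1 and Alox5 were thus lower in ΔM cells at all 3 times, whereas Ptges and Ptgs2 were past the fold only at some times and in no common direction.

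**Figure D2:**
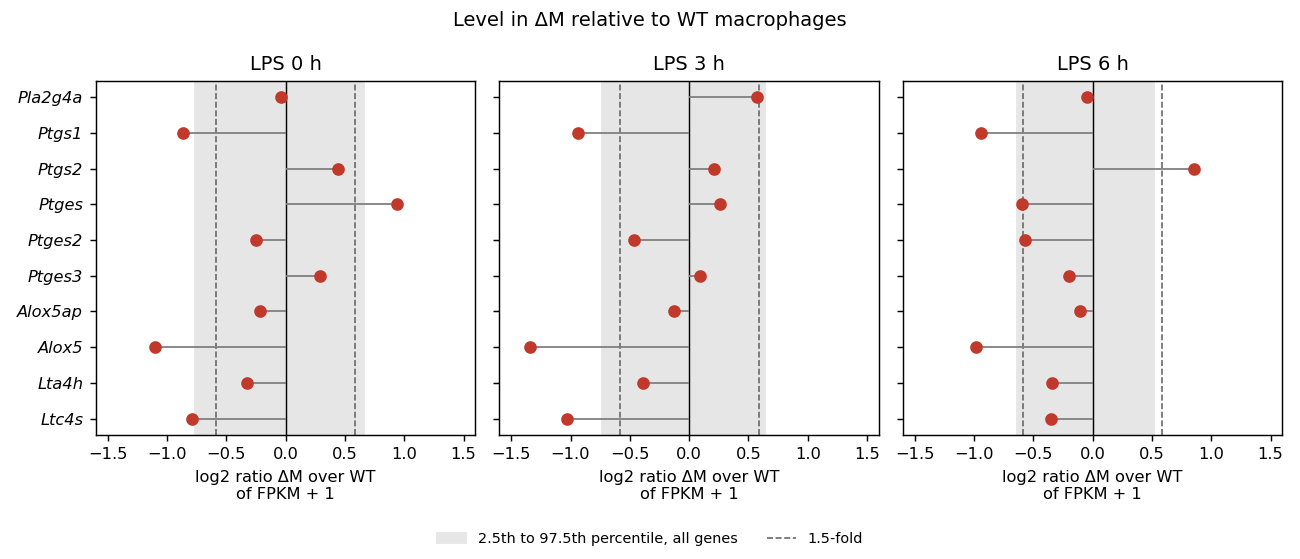
Log2 ratio of FPKM + 1 in ΔM over WT macrophages for each gene (points) at 0, 3 and 6 h of LPS. The grey band leaves out the lowest and the highest 2.5% of all genes tested, and dashed lines mark 1.5-fold. Alox5 and Ptgs1 lie left of the band at all 3 times, and Ptges moves from right of the band at 0 h to a negative value within it at 6 h.

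Pla2g4a encodes cytosolic phospholipase A2 and lies near Ptgs2 on chromosome 1 (149829618 to 149961290, GRCm38). Its level was 11.9, 13.7 and 29.3 FPKM in ΔM cells at 0, 3 and 6 h, against 12.3, 8.86 and 30.3 FPKM in WT cells. The genotypes were close before LPS and at 6 h, with log2 ratios of -0.04 and -0.05. At 3 h the ratio was 0.57, just under 1.5-fold, and 0.59 once centred on the median of all genes, which is past it. The WT level at 3 h was the lowest of the 6, so that from 3 to 6 h the log2 change was 1.04 in ΔM cells and 1.66 in WT cells. Over the whole 6 h it rose by nearly the same amount in both, 1.23 on the log2 scale in ΔM cells and 1.23 in WT cells.

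Ptgs1 encodes COX-1, the cyclooxygenase that many cells express without stimulation (chromosome 2, 36216742 to 36258593). It had 5.79, 3.16 and 1.21 FPKM in ΔM cells at 0, 3 and 6 h, against 11.4, 6.98 and 3.25 FPKM in WT cells. The highest ΔM value was below the WT value at 3 h. The log2 ratio of ΔM over WT was -0.87, -0.94 and -0.94, which ranked 198th, 122nd and 93rd from the lowest among the genes tested. Levels fell with LPS in both genotypes, by 1.62 on the log2 scale from 0 to 6 h in ΔM cells and by 1.54 in WT cells. These values depended on the pseudocount, since the levels were low. With 0.1 FPKM the log2 ratios of ΔM over WT became -0.97, -1.12 and -1.35. The log2 change from 0 to 6 h then became -2.17 in ΔM cells and -1.78 in WT cells.

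Ptgs2 encodes COX-2, the cyclooxygenase induced by inflammatory signals (chromosome 1, 150100031 to 150108234). It had 2.32, 357 and 849.9 FPKM in ΔM cells at 0, 3 and 6 h, against 1.45, 309.5 and 469 FPKM in WT cells. The induction by 3 h was of like size in both genotypes, with a log2 change of 6.75 in ΔM cells and 6.99 in WT cells, the 9th and the 12th largest among the genes tested. The genotypes parted between 3 and 6 h, when the FPKM became 2.38 times as high in ΔM cells and 1.52 times as high in WT cells. The log2 ratio of ΔM over WT was 0.44 before LPS, 0.21 at 3 h and 0.85 at 6 h. At 6 h it was the 67th highest of 10307 genes and corresponded to a 1.81-fold higher level. The starting levels were low, and with a pseudocount of 0.1 FPKM in place of 1 the ratio before LPS became 0.64, past 1.5-fold.

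The balance of the cyclooxygenases shifted with both changes. Before LPS there was 0.401 FPKM of Ptgs2 per FPKM of Ptgs1 in ΔM cells and 0.127 in WT cells. At 3 h the ratio was 113 in ΔM cells and 44.3 in WT cells, and at 6 h it was 702 in ΔM cells and 144 in WT cells. These quotients use no pseudocount, and at 6 h they rest on a low Ptgs1 level (1.21 FPKM in ΔM and 3.25 FPKM in WT cells). Ptgs2 then made up 99.9% of the summed cyclooxygenase FPKM in ΔM cells and 99.3% in WT cells. The sum was 851 FPKM in ΔM cells, against 473 FPKM in WT cells.

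The Ptgs2 mRNA holds more AU-rich motifs than any other member's. The study's supplementary list of TTP binding sites after 3 h of LPS holds 3 stretches of at most 30 bases in the Ptgs2 3′ untranslated region. Any longer stretch was left out, and those 3 lie on the plus strand of chromosome 1 in mm9, the build of that list. They are shown because they are the elements TTP is known to read, with every ATTTA in capitals (T stands for U in the mRNA).
Ptgs2 site 1 (chr1:151952918-151952944): tactgaccatATTTATTTATTTAtgtg
Ptgs2 site 2 (chr1:151952948-151952975): aATTTAATTTAattATTTAatATTTAta
Ptgs2 site 3 (chr1:151954321-151954348): tttttaaaaatatttttATTTAtaatta
Site 1 starts 6 bases after the stop codon and holds 3 overlapping copies of ATTTA, site 2 starts 36 bases after it and holds 4, and site 3 starts 1409 bases after it and holds 1. Each stretch matched the mm9 genome base for base. The list of TTP sites after 6 h of LPS was not read here. For 6 h the paper names Ptgs2 among the genes with overlapping sites of TTP and HuR, an mRNA-stabilising protein, in the 3′ untranslated region. Over the longest annotated 3′ untranslated region of each gene (GENCODE vM1, mm9), Ptgs2 had 12 ATTTA and 6 TATTTAT in 2228 bases, both counted on the sense strand with overlaps allowed, and every TATTTAT contains an ATTTA. Of 1668 expressed genes whose region was within 20% of that length, 90.2% held at least 1 ATTTA and 39.3% at least 1 TATTTAT. A region with as many ATTTA occurred in 1.5% of them, and one with as many TATTTAT in 0.48%. Among the other members Ptges3 and Pla2g4a had 4 ATTTA each, Alox5 had 2 and Alox5ap had 1, and TATTTAT occurred once more, in Alox5. As many ATTTA were held by 2.3% of genes of like length for Pla2g4a (443 bases) and by 17.7% for Ptges3 (1186 bases). For Alox5 and Alox5ap the shares were 27.3% and 35.1%. At least 1 TATTTAT was held by 17.0% of genes of like length for Alox5. Ptgs1, Ptges, Ptges2, Lta4h and Ltc4s had neither motif, Ptges in 3106 bases, a length at which 94.6% of genes held ATTTA. At the lengths of Ptgs1, Ptges2, Lta4h and Ltc4s, ATTTA was held by 67.0%, 41.7%, 17.5% and 16.4% of genes. These counts describe the letters of the annotated regions and do not say which of them are bound.

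The promoters were searched for motifs in the same way. RefSeq promoters (GRCm38.p6, 250 bases before to 50 after a gene's start) matched 9 of the 10 members, all but Alox5ap. The C/EBP palindrome TTGCGCAA, the core of the cyclic AMP response element ACGTCA and the κB pattern GGGNNNNNCC were searched on both strands. These are known sites of factors that act on LPS-induced genes, and the first pair was picked with the Ptgs2 promoter in view. TTGCGCAA was in 0.207% of 27025 genes and, of the members, in Ptgs2. ACGTCA was in 8.37% of genes and again in Ptgs2 among the members. The κB pattern was in 53.5% of genes and in 6 members (Ptgs1, Ptgs2, Ptges, Ptges3, Alox5 and Lta4h). The windows around the first pair of motifs in Ptgs2, with the motif in capitals, are shown because this was the member with the largest LPS response.
Ptgs2 promoter window 1 (chr1:150099951-150099980): cgctgcggttcTTGCGCAActcactgaagc
Ptgs2 promoter window 2 (chr1:150100031-150100060): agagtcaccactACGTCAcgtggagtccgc
The palindrome begins 69 bases before the annotated start and the other motif 12 bases after it.

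Ptges encodes microsomal prostaglandin E synthase-1, the inducible terminal synthase that works with COX-2 (chromosome 2, 30889471 to 30931020). It had 5.28, 29.2 and 44.8 FPKM in ΔM cells at 0, 3 and 6 h, against 2.28, 24.1 and 68.2 FPKM in WT cells. ΔM cells thus started higher and ended lower, with log2 ratios over WT of 0.94, 0.26 and -0.60. The ratio before LPS was the 124th highest of 11459 genes and that at 6 h the 310th lowest of 10307. From 0 to 6 h the level rose by 2.86 on the log2 scale in ΔM cells and by 4.40 in WT cells. With the ratios centred on the median of all genes the value at 6 h was -0.56, which no longer passed 1.5-fold.

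The remaining prostaglandin E synthases did not pass 1.5-fold between genotypes at any time with a pseudocount of 1. Ptges2 encodes microsomal prostaglandin E synthase-2 (chromosome 2, 32395890 to 32402740) and had 5.00, 3.00 and 3.58 FPKM in ΔM cells at 0, 3 and 6 h, against 6.12, 4.51 and 5.79 FPKM in WT cells. Its log2 ratios were -0.25, -0.46 and -0.57, and with a pseudocount of 0.1 FPKM the value at 6 h became -0.68, past 1.5-fold. Ptges3 encodes the cytosolic synthase, which is also the Hsp90 co-chaperone p23 (chromosome 10, 128058982 to 128077254). It had 11.99, 12.4 and 6.57 FPKM in ΔM cells, against 9.63, 11.6 and 7.69 FPKM in WT cells, with log2 ratios of 0.29, 0.09 and -0.20. Before LPS, Ptges3 made up 53.8% of the summed FPKM of these synthases in ΔM cells and 53.4% in WT cells. At 6 h Ptges made up 81.5% in ΔM cells and 83.5% in WT cells, of a sum of 54.9 FPKM in ΔM cells and 81.7 FPKM in WT cells.

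In the leukotriene branch, Alox5ap encodes FLAP, the membrane protein that presents arachidonic acid to 5-lipoxygenase (chromosome 5, 149265004 to 149288153). It had 740.2, 481 and 295 FPKM in ΔM cells at 0, 3 and 6 h, against 861, 525 and 317 FPKM in WT cells. The log2 ratios of ΔM over WT were -0.22, -0.12 and -0.10, all within 1.5-fold. Alox5 encodes 5-lipoxygenase itself (chromosome 6, 116410071 to 116461178). It had 9.26, 5.35 and 3.25 FPKM in ΔM cells, against 21.0, 15.1 and 7.42 FPKM in WT cells. Its log2 ratios of -1.10, -1.34 and -0.99 ranked 97th, 34th and 85th from the lowest among the genes tested. They were the lowest of the members at each time with a pseudocount of 1, whereas with 0.1 FPKM Ltc4s was lower at 3 h (-1.51, against -1.48 for Alox5) and Ptgs1 was lower at 6 h (-1.35, against -1.17 for Alox5). There were 79.9, 90.0 and 90.7 FPKM of Alox5ap per FPKM of Alox5 in ΔM cells at 0, 3 and 6 h, against 41.0, 34.8 and 42.7 in WT cells.

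Lta4h encodes the hydrolase that makes leukotriene B4, a neutrophil attractant (chromosome 10, 93453396 to 93484896). It had 24.9, 16.2 and 9.92 FPKM in ΔM cells at 0, 3 and 6 h, against 31.6, 21.5 and 12.8 FPKM in WT cells, with log2 ratios of -0.33, -0.39 and -0.34. Ltc4s encodes the synthase of leukotriene C4, the parent of the cysteinyl leukotrienes (chromosome 11, 50236461 to 50238532). It had 1.70, 1.08 and 0.87 FPKM in ΔM cells, against 3.66, 3.25 and 1.39 FPKM in WT cells. Its log2 ratios were -0.79, -1.03 and -0.35, of which the first pair passed 1.5-fold. At so low a level the ratio depended on the pseudocount, and with 0.1 FPKM the value at 6 h became -0.62, past 1.5-fold. Lta4h and Alox5ap, the most abundant members before LPS, were thus within 1.5-fold between genotypes at all times.

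By 6 h, LPS had raised Ptgs2, Ptges and Pla2g4a in both genotypes. From 0 to 3 h, 2 members (Ptgs2 and Ptges) rose in both genotypes, while 5 fell in ΔM cells (Ptgs1, Ptges2, Alox5, Alox5ap and Lta4h) and 2 in WT cells (Ptgs1 and Alox5ap). Over all genes 11.3% rose and 31.7% fell in ΔM cells, and 10.9% rose and 34.6% fell in WT cells. From 3 to 6 h, Ptgs2, Ptges and Pla2g4a rose in both genotypes. In that interval Ptgs1, Ptges3, Alox5ap and Lta4h fell in ΔM cells, where Ltc4s was below the mean of 1 FPKM and was not counted, and Ptgs1, Alox5, Alox5ap, Lta4h and Ltc4s fell in WT cells. The shares of all genes were 8.4% up and 19.4% down in ΔM cells and 9.47% up and 20.3% down in WT cells. From 0 to 6 h the same 3 members rose and 5 fell in each genotype, Ptgs1, Alox5, Alox5ap and Lta4h in both, with Ptges3 in ΔM cells and Ltc4s in WT cells. Here 13.1% of all genes rose and 47.8% fell in ΔM cells, and 13.5% rose and 50.9% fell in WT cells, so that the share of members that fell was close to that of all genes.

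FPKM is a share of each library, and the median gene fell with LPS, so these falls are to be read against it. The median log2 change of all genes was -0.34 in ΔM cells and -0.39 in WT cells from 0 to 3 h, -0.21 in both from 3 to 6 h, and -0.55 in ΔM cells and -0.60 in WT cells from 0 to 6 h. Relative to that median no member fell past 1.5-fold by 3 h in either genotype, and Ptges3, at 0.63, rose in WT cells. From 3 to 6 h Alox5ap and Lta4h no longer fell in either genotype, which left 2 members that fell in ΔM cells (Ptgs1 and Ptges3) and 3 in WT cells (Ptgs1, Alox5 and Ltc4s). From 0 to 6 h Ptgs1, Alox5, Alox5ap and Lta4h still fell in both, while Ptges3 in ΔM cells (-0.23) and Ltc4s in WT cells (-0.36) did not. The centred log2 changes from 0 to 6 h of Ptgs1, Alox5, Alox5ap and Lta4h were -1.07, -0.73, -0.78 and -0.70 in ΔM cells, against -0.95, -0.79, -0.84 and -0.64 in WT cells. Those of Ptgs2, Ptges and Pla2g4a were 8.55, 3.41 and 1.78 in ΔM cells, against 8.18, 5.00 and 1.83 in WT cells. Centring also turned the split of all genes, to 2571 up and 2189 down against 1460 and 5311 uncentred in ΔM cells from 0 to 6 h, and to 2778 and 2392 against 1528 and 5742 in WT cells. From 0 to 3 h the centred split was 2062 up and 1571 down in ΔM cells, against 1274 and 3563 uncentred, and 1995 and 1557 in WT cells, against 1237 and 3928. From 3 to 6 h it was 1439 and 1118 in ΔM cells, against 889 and 2048, and 1620 and 1205 in WT cells, against 1010 and 2161.

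The decay table gives, for each group, the slope of the log2 mRNA level over the 90 min of actinomycin D and a half-life, written as stable from 180 min on. All 10 members were listed as stable at 3 and 6 h in both ΔM and WT cells. For Ptgs2 in WT cells at 6 h the rate corresponded to 184 min, just above that limit. Over all genes of at least 1 FPKM the share listed as stable was 77.4% at 3 h and 83.0% at 6 h in ΔM cells, against 78.9% and 77.5% in WT cells. Because FPKM is scaled to the size of each library, a slope is relative to the other mRNAs. An mRNA that is lost more slowly than the average can therefore have a slope above 0. FPKM totals of the libraries with actinomycin D were not available here. The members' slopes over 90 min ranged between -0.44 and 0.42 log2 units at 3 h and between -0.19 and 0.85 at 6 h in ΔM cells, and between -0.33 and 0.30 at 3 h and between -0.49 and 0.44 at 6 h in WT cells. Slopes above 0 were seen for 8 of 10 members in ΔM cells at either time and for 4 of 10 in WT cells at either time. Over all genes they were seen for 36.1% at 3 h and 45.1% at 6 h in ΔM cells, against 45.6% and 42.3% in WT cells.

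**Figure D3:**
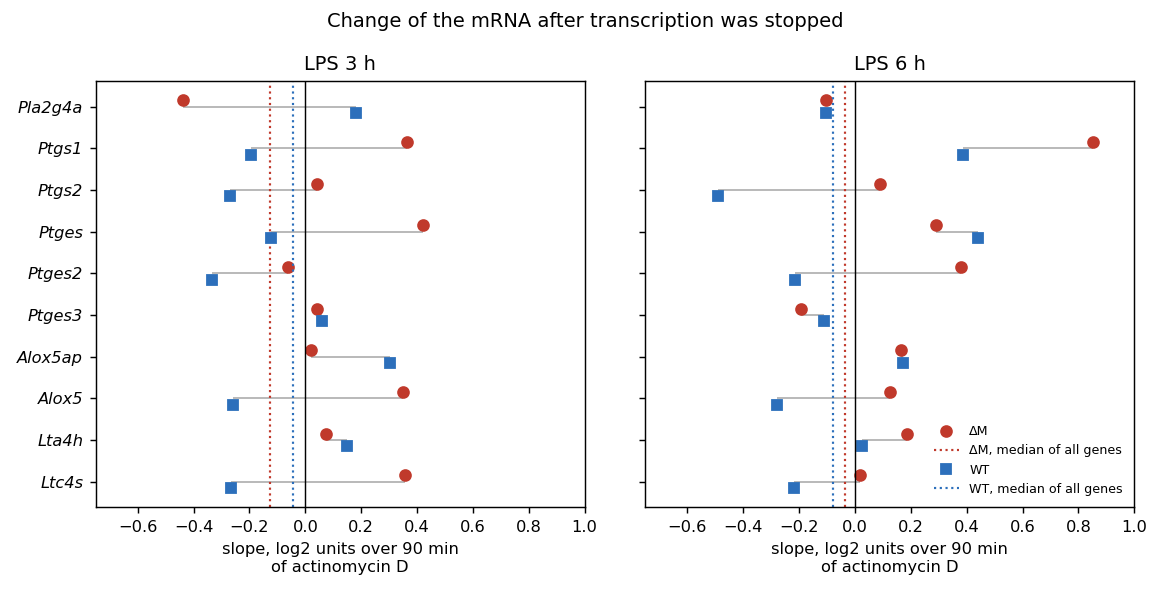
Slope of each mRNA over 90 min of actinomycin D (log2 units) in ΔM (red circles) and WT (blue squares) macrophages after 3 and 6 h of LPS, 1 pooled value per group, with dotted lines at the median of all genes. For Ptgs2 at 6 h the ΔM point lies at 0.09 and the WT point at -0.49, and at 3 h the ΔM point of Pla2g4a, at -0.44, lies left of its WT point, at 0.18.

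Differences between genotypes were taken as the slope in ΔM cells minus that in WT cells over 90 min, so that a positive value means slower loss in ΔM cells. At 3 h, 2 members passed 1.5-fold towards slower loss (Ltc4s at 0.62 and Alox5 at 0.61) and 1 towards faster loss (Pla2g4a at -0.62). Of 10653 genes, 6.33% passed towards slower and 12.1% towards faster loss. Centred on the median of all genes, Pla2g4a, at -0.58, no longer passed and Ptgs1, at 0.60, did, which made 3 members slower and none faster, and the split of all genes was 809 slower and 1121 faster, against 674 and 1284 uncentred. At 6 h, 1 member passed towards slower loss (Ptges2 at 0.59) and none towards faster loss, beside 3.28% and 1.56% of 10219 genes. Centred on the median of all genes the split was 261 slower and 192 faster, against 335 and 159 uncentred, and Ptges2, at 0.55, no longer passed. The members' median difference was 0.29 at 3 h and 0.20 at 6 h, and that of all genes was -0.04 and 0.05. The spread of this measure over all genes widened at low levels. At 3 h, 23% of genes with a mean of 1 to 10 FPKM passed 1.5-fold in either direction, against 12.5% of genes from 100 FPKM. At 6 h the shares were 7.85% and 1.68%.

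For Ptgs2 the slope over 90 min was 0.04 in ΔM cells and -0.27 in WT cells at 3 h, a difference of 0.31. At 6 h it was 0.09 in ΔM cells and -0.49 in WT cells, a difference of 0.58 that was just under 1.5-fold and was the 344th highest of 10219 genes. In terms of the fitted line 107% of the starting level was left after 90 min in ΔM cells at 6 h, against 71.2% in WT cells. This was the lowest amount left of any member in any group. Alox5ap, the other member above 100 FPKM, differed by -0.28 at 3 h and by -0.01 at 6 h.

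Ptgs1 had slopes of 0.36 in ΔM cells and -0.20 in WT cells at 3 h and of 0.85 in ΔM cells and 0.39 in WT cells at 6 h, with differences of 0.56 and 0.46. Ptges had 0.42 in ΔM cells and -0.12 in WT cells at 3 h and 0.29 in ΔM cells and 0.44 in WT cells at 6 h, so its difference was 0.54 at 3 h and -0.15 at 6 h. Alox5 had 0.35 in ΔM cells and -0.26 in WT cells at 3 h and 0.12 in ΔM cells and -0.28 in WT cells at 6 h. Pla2g4a had -0.44 in ΔM cells and 0.18 in WT cells at 3 h, and the same slope of -0.10 in both at 6 h. Ptges3 differed by -0.02 at 3 h and by -0.08 at 6 h, and Lta4h by -0.07 at 3 h and by 0.16 at 6 h. Between 3 and 6 h of LPS no member passed 1.5-fold in either genotype. The largest change was that of Ptgs1, 0.49 in ΔM cells and 0.58 in WT cells. Of all genes 6.38% slowed and 2.31% quickened past that fold in ΔM cells, and 5.03% and 6.8% in WT cells. Centred, the counts in ΔM cells were 506 slower and 328 faster, against 669 and 242 uncentred. In WT cells centring turned the order, to 618 slower and 600 faster against 531 and 718 uncentred, and Ptgs1 (0.62) and Ptges (0.60) then passed towards slower loss.

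**Figure D4:**
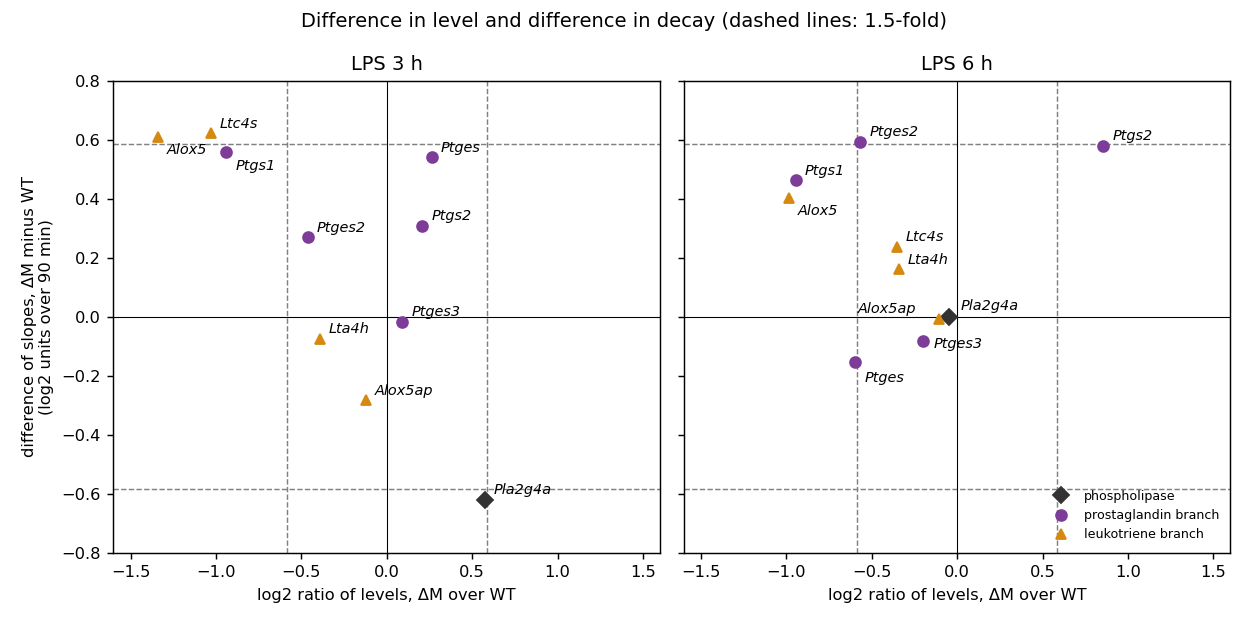
Log2 ratio of levels, ΔM over WT (horizontal), and difference of slopes over 90 min, ΔM minus WT (vertical), for each gene after 3 and 6 h of LPS; dashed lines mark 1.5-fold. At 6 h Ptgs2 lies at 0.85 and 0.58, and Ptgs1 and Alox5 combine a lower level with a positive slope difference at both times.

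Set side by side, Ptgs2 at 6 h had both a higher level and a higher slope in ΔM cells (0.09, against -0.49 in WT cells). Alox5 and Ptgs1 had lower levels in ΔM cells at both times together with positive slope differences, and Pla2g4a at 3 h had a log2 level ratio of 0.57 together with a slope difference of -0.62. The libraries without actinomycin D enter both the level and the slope, so that an error in one of them moves level and slope in opposite directions, and the pairs are given as values only.

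The rest of the pathway was followed in 63 further genes, of which 57 were in the table. Ptgds, Ptgis, Alox12b, Ptgdr, Gpr17 and Oxgr1 were not analysed here. Before LPS 3 of the 37 tested were higher and 1 was lower in ΔM cells, at 3 h 2 of 35 were higher and 4 lower, and at 6 h 1 of 34 was higher and none lower. Over all genes 3.16% were higher and 5.05% lower before LPS, 3.34% and 4.52% at 3 h, and 1.79% and 3.19% at 6 h. Among phospholipases Pla2g7, which encodes the platelet-activating factor acetylhydrolase of plasma, was higher in ΔM cells at all 3 times, with 184, 135.5 and 138 FPKM at 0, 3 and 6 h in ΔM cells, against 60.5, 60.4 and 64.2 FPKM in WT cells. Its log2 ratios were 1.59, 1.15 and 1.09. No prostanoid synthase other than the members passed 1.5-fold after LPS, and neither did any prostanoid receptor at any time. Mgst3, a microsomal glutathione S-transferase related to Ltc4s, had 18.4 FPKM in ΔM cells and 29.4 FPKM in WT cells at 3 h, a log2 ratio of -0.65. Fpr2, a receptor for formyl peptides and lipoxin A4, had 4.43, 26.6 and 81.9 FPKM in ΔM cells, against 1.11, 16.4 and 80.3 FPKM in WT cells, with log2 ratios of 1.36, 0.66 and 0.03. Of the catabolic and transport genes 3 of 9 tested were lower at 3 h and none was higher. All 3 had low levels: Ephx1 (3.81 FPKM in ΔM and 7.57 FPKM in WT cells), Hpgd (0.90 FPKM in ΔM and 2.71 FPKM in WT cells) and Cyp4f18 (1.15 FPKM in ΔM and 2.48 FPKM in WT cells). Of the leukotriene B4 receptors, Ltb4r1 and Ltb4r2 were under 1 FPKM in all 6 groups.

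For the 8 members whose log2(FPKM + 1) spanned at least 1 over the 6 groups without actinomycin D, the nearest profiles were sought as the smallest Euclidean distance between own-mean-centred profiles, among genes that reached 10 FPKM. The profile of Alox5 was nearest to those of Fads2, a fatty acid desaturase (distance 0.19 log2 units), Scd1, another desaturase (0.30), and the cell cycle kinase gene Cdk1 (0.34). That of Ptgs1 was nearest to Ndc1, a nuclear pore gene (0.16), Rrm1, a ribonucleotide reductase subunit (0.16), and Lmnb1, which encodes lamin B1 (0.37). Ptges was nearest to the Fc receptor gene Fcgr2b (0.51), Slamf7 (0.56) and Ifi47 (0.59), and Pla2g4a to Nsmaf (0.29), Cd200r4 (0.35) and Inpp4a (0.37). Ptgs2 had no close neighbour, and the nearest were Gbp2b (1.19), Socs3 (1.24) and Rsad2 (1.31). The nearest to Alox5ap, Lta4h and Ltc4s were Kdelr2 (0.10), Mars (0.07) and 1700037H04Rik (0.26). These distances are over 6 pooled values and are a description.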

How the data were processed

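RNA of ΔM and WT BMDMs was sequenced by the authors (SENSE mRNA-Seq kit, single-end reads), aligned with GSNAP to mm10 and quantified with the Mix2 software. The deposited FPKM are 1 value per group of 3 replicates, and how the replicates were combined is not given in the sources used here. The other deposited values are decay rates (slope of log2 level per min over 0, 45 and 90 min of actinomycin D) and half-lives in min, which equal -1 over the rate and are written as stable from 180 min. The authors' own log2 fold changes and false discovery rates (DESeq2), the other columns of the expression table, were not used. Neither counts nor depth could be recovered. From the values, ratios of FPKM + 1 and differences of slopes times 90 min were computed (Python 3.11.15, pandas 2.3.3, numpy 2.4.6), with a mean of at least 1 FPKM over both groups and a fold of 1.5. No test was run. The code was tested on simulated data. Members and lists were chosen with earlier results of these data known. Named genes were the members, Zfp36, other pathway genes past 1.5-fold at 3 or 6 h with a mean of at least 10 FPKM, and the 3 nearest profiles; genes named beyond these were chosen after their values were seen. Alternatives were a pseudocount of 0.1, folds of 2 and of 0.32 on the log2 scale, no filter or a mean of 10 FPKM, centring on the median of all genes, and a call on half-lives.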

Additional observations from a re-analysis of the deposited data

Results flagged for a closer look

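Ptges was past 1.5-fold in opposite directions at different LPS times. Its log2 ratio of ΔM over WT was 0.94 before LPS, with 5.28 FPKM in ΔM cells and 2.28 FPKM in WT cells, and -0.60 at 6 h, with 44.8 FPKM in ΔM cells and 68.2 FPKM in WT cells. The difference between the times was not tested, since each group has 1 pooled value. No sample could be compared with the others of its group for the same reason.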

How the results depend on the processing

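No paired analysis was possible because the tables hold 1 pooled value per group, and replicates could not be left out in turn. Of 676 member values under an alternative, 588 stayed on the same side of the fold, 48 no longer passed it, 40 newly passed it and none that had passed it changed sign. Of the 588, the 128 without a filter and the 75 with a mean of 10 FPKM could not move, since a filter leaves the ratio unchanged. A change of the fold cannot turn a sign, so only the other pseudocount and centring could have done so. The number of members past the fold stayed within 1.5 times its first value in 52 of 78 cases. At 2-fold it was 1 before LPS and 0 at 6 h between genotypes (4 at each time at 1.5-fold). Past 2-fold 106 genes were higher and 136 lower of 11459 before LPS, and 39 and 84 of 10307 at 6 h. From 0 to 3 h of LPS, 2 members passed 2-fold in ΔM and 2 in WT cells (7 and 4 at 1.5-fold). Among 11252 genes 844 rose and 1307 fell in ΔM cells, and among 11362 genes 842 rose and 1463 fell in WT cells. From 3 to 6 h, 2 members passed 2-fold in ΔM and 2 in WT cells (7 and 8 at 1.5-fold). Here 365 genes rose and 638 fell of 10583 in ΔM cells, and 405 and 672 of 10661 in WT cells. At the lower fold of 0.32 on the log2 scale, 6 members passed at 3 h and 7 at 6 h between genotypes. Among 10770 genes 1362 were higher and 1722 lower at 3 h, and among 10307 genes 772 and 1160 at 6 h. From 0 to 3 h in WT cells 8 members passed that fold, beside 1692 genes that rose and 6286 that fell of 11362. With a mean of at least 10 FPKM fewer members were tested, and 1 passed 1.5-fold before LPS, 1 at 3 h and 2 at 6 h between genotypes. Among 5676 genes 219 were higher and 238 lower before LPS. The counts were 199 and 240 of 5054 at 3 h, and 90 and 141 of 4642 at 6 h. In ΔM cells 4 members passed from 0 to 3 h and 5 from 0 to 6 h (8 without that filter). Of all genes 782 rose and 1594 fell of 5399 from 0 to 3 h, and 932 and 2379 of 5278 from 0 to 6 h. Centring gave 2 members past the fold from 0 to 3 h in ΔM cells, beside 2062 genes up and 1571 down of 11252. For decay, ΔM minus WT, 3 members passed 1.5-fold at 3 h and 1 at 6 h, and 0 passed 2-fold at either time. Past 2-fold 94 genes were slower and 332 faster of 10653 at 3 h, and 61 and 22 of 10219 at 6 h. At that lower fold 5 members passed at 3 h and 4 at 6 h. Of all genes 2020 were then slower and 2814 faster at 3 h, and 1298 and 623 at 6 h. Called on half-lives, 0 members passed at either time, all being listed as stable. By that call 731 genes were slower and 857 faster at 3 h, and 774 and 234 at 6 h. The rate of Ptgs2 in WT cells at 6 h corresponded to a half-life of 184 min, near the limit of 180 min. The number of members past the fold for decay at 6 h was also 0 with a mean of at least 10 FPKM and 0 after centring. With that filter 48 genes were slower and 7 faster of 4627, and after centring 261 and 192 of 10219. For decay at 6 h minus 3 h no member passed 1.5-fold. At that lower fold 3 members passed in ΔM cells, beside 2058 genes slower and 950 faster of 10487, and 2 members in WT cells. After centring 2 members passed 1.5-fold in WT cells. Without read counts, the precision of low values such as those of Ltc4s is unknown.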
